A study of Mus musculus with 2 samples.

Results

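The collagen chains were examined in the spinal cord of mice at postnatal day 7 (P7). Chains were taken as the genes whose symbol is Col, a number, the letter a and a number, which gave 44 of the 51826 genes in the deposited table. They were grouped as 8 fibrillar, 9 basement membrane, 7 cartilage and 4 transmembrane chains, with 6 collagen VI, 6 fibril-associated and 4 other chains outside those classes. A further fibril-associated chain, Col21a1, was looked for and was not found under its symbol. The study compared whole cords of C57BL/6 mice by RNA sequencing, with 1 library of wild-type mice (WT) and 1 library of mice of the genotype Olig1-Cre;Secisbp2l-floxed(Ex3), called cKO. In the latter, Cre recombinase made from the Olig1 locus acts on an allele of Secisbp2l floxed at exon 3, and Olig1 is active in the oligodendrocyte lineage. The labels give no Cre or floxed allele for WT, and the number of animals behind each library is not stated. As each genotype was sequenced once, no difference has a replicate, no test between groups was possible, and no p-value is given.

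Collagens are secreted or membrane proteins whose chains wind around each other into a triple helix, and the chains of a trimer can be of different kinds. Fibrillar collagens such as types I, III and V form the fibres of connective tissue. Type IV forms the sheet of the basement membrane, on which endothelium, astrocyte endfeet and Schwann cells rest. In and around the cord, fibrillar chains are made mainly by fibroblasts of the meninges and of blood vessel walls, and basement membrane chains by endothelium, pericytes and meningeal cells, while neurons and glia make little fibrillar collagen. New chains are hydroxylated, glycosylated and folded in the endoplasmic reticulum, trimmed outside the cell and crosslinked.

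Sequencing gave 42875143 estimated counts for WT and 55179026 for cKO, with 28316 and 29659 genes above 0. Collagen chains took 232528 of these in WT (0.542%) and 276208 in cKO (0.501%). Levels below are counts per 1000000 counts (CPM) after scaling, and levels of different genes are compared only on the length-adjusted values (TPM) that the authors deposited. A gene was called measured where its mean over both libraries was at least 1 CPM. Ratios are log2 of cKO over WT CPM, each with an exact 95% interval that covers counting error only. A gene was called lower or higher where the difference was at least 1.5-fold and the interval left out a ratio of 1. All 8 markers of cord cells and cord segments that were looked up were measured, among them Gfap of astrocytes (2092 CPM in WT and 1997 in cKO, log2 ratio -0.07), Snap25 of neurons (690 and 720 CPM, 0.06) and the myelin gene Mbp (5277 and 2854 CPM, -0.89, lower by the rule), while Hoxd10, a homeobox gene of the lumbar cord, was higher (2.24 and 7.00 CPM, 1.65). Secisbp2l itself was at 588 CPM in WT and 466 in cKO (-0.34, interval -0.37 to -0.30). The libraries also differed in sex-linked expression, with 35182 and 13 counts of Xist and 0 and 9011 counts over 4 Y-linked genes, so that genotype and sex-linked expression cannot be told apart in any value below. Of the chains, Col4a5 and Col4a6 lie on the X chromosome.

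Every one of the 44 chains was detected in both libraries, and 42 were measured. None of the 42 was lower and none was higher by the 1.5-fold rule, where 3.39% of the 15917 measured genes were lower and 2.46% were higher. Their log2 ratios ran from -0.54 (Col6a5) to 0.49 (Col6a6), with a median of -0.12. The median over all measured genes was 0.01, with quartiles at -0.14 and 0.15. At any size of difference, the interval lay below a ratio of 1 for 16 chains (38.1%) and above it for 8 (19.0%), against 18.4% and 21.9% of all measured genes. Many chains are abundant and so have narrow intervals. Among the 36 chains of at least 5 CPM, the shares were 44.4% below and 19.4% above, against 20.7% and 25.3% of the 12715 genes of that level. Summed over the chains, 5420 CPM in WT stood beside 5009 CPM in cKO (log2 -0.11). No measured chain thus reached a 1.5-fold difference past its interval, and the direction of the smaller differences was not the same in all classes.

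**Figure D1:**
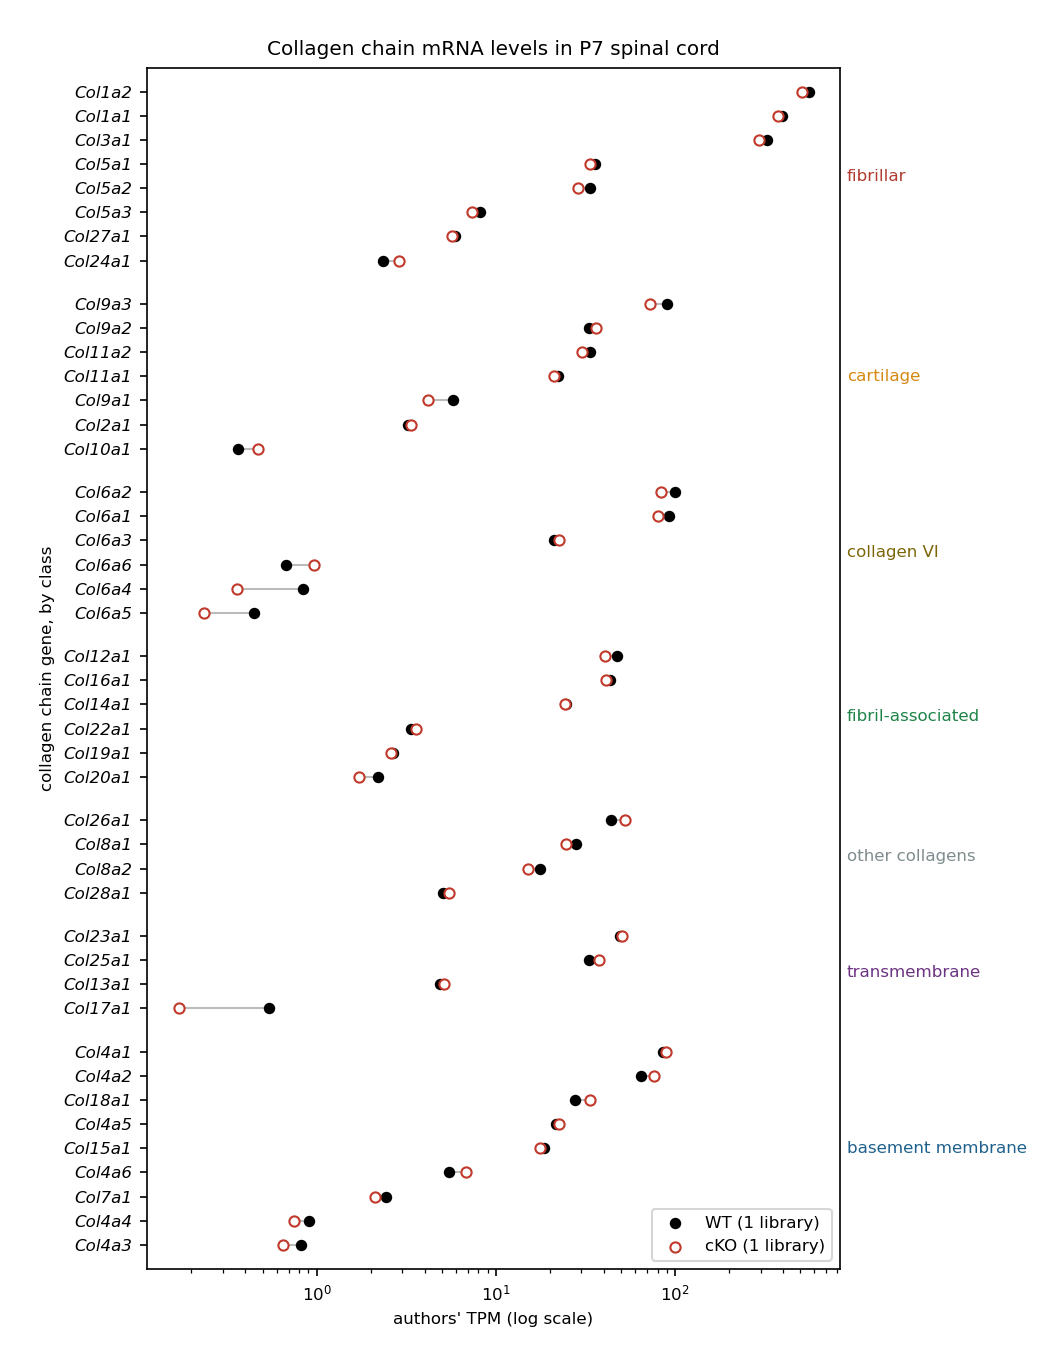
Deposited TPM of the 44 collagen chains (x axis, log scale) in the WT library (filled points) and the cKO library (open points), with the genes grouped by class on the y axis and a grey line joining the 2 values of a chain. The type I and III chains stand above all others in both libraries, from 295 to 556 TPM, and most pairs of points nearly coincide.

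The chains of types I and III dominated the collagen message of the cord. Col1a2, the second chain type of the type I trimer, had the highest level at 556 TPM in WT and 511 TPM in cKO. Its partner Col1a1 followed at 394 and 374 TPM, and Col3a1, which alone builds type III collagen, at 327 and 295 TPM. These 3 chains made up 55.5% of the summed chain TPM in WT and 54.4% in cKO. The next chain by mean TPM, Col6a2, had 100.3 TPM in WT and 83.0 TPM in cKO, where Col4a1 stood above it at 88.9 TPM. Stretches of DNA before the RefSeq starts of Col1a2 and Col3a1 are shown because these are the most abundant chains with an entry in the promoter table. Sequences come from the RefSeq promoter table on GRCm38.p6, 5′ to 3′ on the gene's strand, cut to the bases outside annotated exons, with searched motifs in capitals. Col1a2 (ENSMUSG00000029661, chromosome 6 from 4504814 to 4541544, plus strand) is shown over chr6:4505370-4505492 and holds GGGCGG at 2 places. This stretch lies inside the span of the gene, as the annotation also places other exons of the gene before it. A CCAAT or ATTGG match in a promoter window of Col1a2 is outside the bases shown. Col3a1 (ENSMUSG00000026043, chromosome 1 from 45311538 to 45349706, plus strand) is shown over chr1:45311288-45311537 and holds TATAAA at 1 place.
Col1a2: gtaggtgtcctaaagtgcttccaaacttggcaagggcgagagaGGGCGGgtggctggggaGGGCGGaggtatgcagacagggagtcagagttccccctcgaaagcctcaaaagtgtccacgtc
Col3a1: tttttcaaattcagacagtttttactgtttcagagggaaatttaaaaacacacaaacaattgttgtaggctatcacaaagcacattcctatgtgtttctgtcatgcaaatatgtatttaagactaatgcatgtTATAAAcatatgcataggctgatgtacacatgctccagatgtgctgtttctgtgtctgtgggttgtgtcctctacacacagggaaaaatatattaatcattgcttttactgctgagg

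A set of 3 motifs was searched on both strands in windows of 300 bases, which run from 250 bases before to 50 after each start. GGGCGG or its reverse CCGCCC was found in a window of 22 of the 35 chains with an entry, against 38.2% of the 27025 genes with a window of this length (35.7% of all 32851 windows). CCAAT or ATTGG was found in 13 chains against 41.1% of genes (37.4% of windows), and TATAAA or TTTATA in 5 chains against 15.7% of genes (13.6% of windows). The motifs do not overlap in letters. A match is a description of the window, and none of these counts bears on which factor acts there.

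Fibrillar chains were mostly lower in cKO, each by a small amount. Col1a2 had 54711 counts in WT and 63808 in the deeper cKO library, or 1275 and 1157 CPM (-0.14, interval -0.16 to -0.12). Col1a1 (ENSMUSG00000001506, chromosome 11 from 94936224 to 94953042, plus strand) had 1034 and 956 CPM (-0.11, -0.14 to -0.09). Col3a1 was at 799.5 and 707 CPM, the lowest ratio of the 3 at -0.18 (-0.21 to -0.15). All 3 intervals lay below a ratio of 1, and none of the 3 differences reached 1.5-fold.

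Type V chains enter type I fibrils and limit their width. Col5a1 had 134 CPM in WT and 123 in cKO (-0.13, -0.20 to -0.06). Col5a2 had 97.0 and 80.8 CPM (-0.26, -0.35 to -0.18), and Col5a3, the rarer alternative chain, 21.5 and 17.7 CPM (-0.28, -0.47 to -0.09). The intervals of all 3 lay below a ratio of 1. Col27a1, a fibrillar chain best known from developing cartilage, was at 14.2 and 13.9 CPM (-0.03, -0.25 to 0.19). Col24a1, whose product is found in developing bone and eye, was the only fibrillar chain with an interval above a ratio of 1, at 6.64 and 8.43 CPM (0.34, 0.04 to 0.66). Over the 8 fibrillar chains the median was -0.13. Of their intervals 6 lay below and 1 above a ratio of 1, against 18.4% and 21.9% of all measured genes. All 8 were of at least 5 CPM, a level at which the shares of all genes were 20.7% and 25.3%. Intervals narrow as counts rise, so such shares depend on level as well as on the size of a ratio, in every class. The class sum was 3382 CPM in WT and 3064 in cKO (-0.14).

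**Figure D2:**
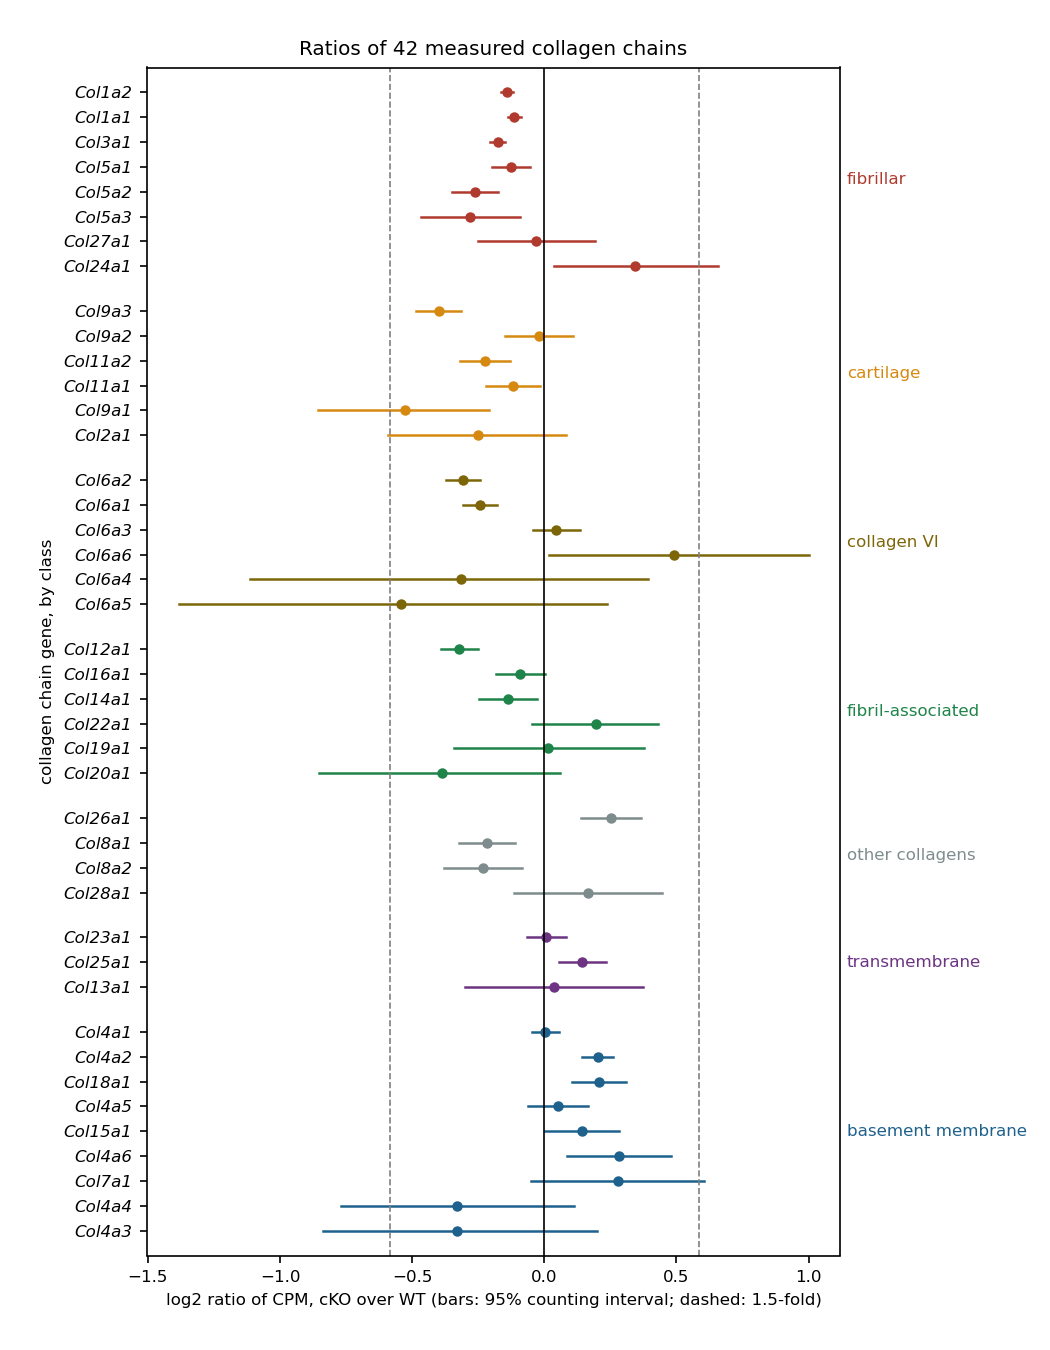
Log2 ratio of scaled CPM, cKO over WT (x axis), of the 42 measured chains grouped by class (y axis), with points for the ratio, bars for the 95% counting interval and dashed lines at 1.5-fold in either direction. No point lies beyond a dashed line, 6 of 8 fibrillar intervals lie below 0, and 4 of 9 basement membrane intervals lie above it. Over all measured genes, 18.4% of intervals lie below 0 and 21.9% above, and intervals narrow as counts rise.

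Basement membrane chains did not share that direction. No interval of the 9 chains lay below a ratio of 1 and 4 lay above it, against 18.4% and 21.9% of all measured genes. The median was 0.14 and the class sum 607 CPM in WT and 654 in cKO (0.11). The sum in TPM differed in the same direction (227 and 249.6 TPM, 0.14). Col4a1 and Col4a2, which together form the usual type IV trimer, had the highest levels, Col4a1 at 85.3 TPM in WT and 88.9 TPM in cKO, and Col4a2 at 64.6 and 76.7 TPM. Col4a1 had 246 CPM in WT and 247 in cKO (interval -0.05 to 0.06). Col4a2 had 185 and 213 CPM (0.20, 0.14 to 0.26). The difference between the 2 log2 ratios was -0.20 (interval -0.28 to -0.12, from counting error with a normal approximation), and the TPM ratio of Col4a1 to Col4a2 was 1.32 in WT and 1.16 in cKO. The genes start head to head on chromosome 8, Col4a1 on the minus strand from 11198423 to 11312826 and Col4a2 on the plus strand from 11312805 to 11449287, and overlap by 22 bases. The strand setting of the counting is not given in the sources used here, so reads of this overlap cannot be assigned.

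Col18a1 and Col15a1 are the basement membrane chains from which the fragments endostatin and restin are cut. Col18a1 had 60.9 CPM in WT and 70.2 in cKO (0.21, 0.10 to 0.31). Col15a1 had 33.6 and 37.1 CPM (0.14, 0.0036 to 0.28), though its deposited TPM went the other way, from 18.6 in WT to 17.7 in cKO. Col7a1, the anchoring fibril chain, was likewise at 6.06 and 7.34 CPM (0.28, -0.05 to 0.60) and at 2.44 and 2.12 TPM. Direction on both scales was thus shared by Col18a1 and Col4a2 but not by these last chains.

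The remaining type IV chains lie in head-to-head pairs, like Col4a1 and Col4a2. Col4a5 had 52.4 CPM in WT and 54.3 in cKO (0.05, -0.06 to 0.16), and its neighbour Col4a6 16.3 and 19.8 CPM (0.28, 0.08 to 0.48). Both are on the X chromosome, separated by 1308 bases, Col4a5 on the plus strand from 141475385 to 141689234 and Col4a6 on the minus strand from 141165403 to 141474076. Their ratios differed by -0.23 (-0.45 to -0.01). Col4a4 (chromosome 1 from 82448423 to 82586849, minus strand) and Col4a3 (82586921 to 82722059, plus strand), known for their place in the glomerular and cochlear basement membranes, were rare. Col4a4 had 177 counts in WT and 181 in cKO (4.13 and 3.28 CPM, -0.33, -0.77 to 0.11), and Col4a3 had 128 and 131 counts (2.98 and 2.38 CPM, -0.33, -0.84 to 0.20). The ratios of this pair differed by 0.0012, with an interval of -0.65 to 0.65 that leaves room for large differences. The DNA between the starts is shown for these pairs because the partners of each share this stretch. The 71 bases at chr1:82586850-82586920, read on the strand of Col4a4, are the whole spacer between Col4a4 and Col4a3 and hold none of the searched motifs. For the X-linked pair, the ends of the spacer are shown, chrX:141475169-141475384 before Col4a5 with 1 CCAAT, and chrX:141474077-141474326 before Col4a6 with 1 CCGCCC.
Col4a4: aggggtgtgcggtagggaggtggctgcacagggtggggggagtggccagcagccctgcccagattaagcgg
Col4a5: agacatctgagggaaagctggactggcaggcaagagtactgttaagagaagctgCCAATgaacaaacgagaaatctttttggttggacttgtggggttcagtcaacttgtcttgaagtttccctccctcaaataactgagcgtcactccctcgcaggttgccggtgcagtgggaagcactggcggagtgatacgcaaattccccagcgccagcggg
Col4a6: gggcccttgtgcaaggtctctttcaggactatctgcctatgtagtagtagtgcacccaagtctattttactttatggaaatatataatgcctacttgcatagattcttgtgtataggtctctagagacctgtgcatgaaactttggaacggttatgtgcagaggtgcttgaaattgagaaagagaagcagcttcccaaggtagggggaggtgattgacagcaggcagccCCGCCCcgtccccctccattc

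Chains of cartilage collagens were all detected in the dissected cord. Their class had the lowest median among the 4 classes of the rule, -0.24, with collagen VI outside those classes at -0.28. The sum of the cartilage class was 311 CPM in WT and 264 in cKO (-0.23). Of its 6 measured chains, 4 had an interval below a ratio of 1 and none above, against 18.4% and 21.9% of all measured genes. Col9a3, a chain of the type IX collagen that coats cartilage fibrils, was the most abundant at 90.5 TPM in WT and 72.1 TPM in cKO. In counts this was 4455 and 4339, or 104 and 78.7 CPM (-0.40, -0.49 to -0.31). Col9a1 was at 7.97 and 5.53 CPM (-0.53, -0.86 to -0.21), the chain closest to the limit among those with an interval below 1, at 1.44-fold. Col9a2, the third chain of the trimer, was at 41.2 and 40.6 CPM (-0.02, -0.15 to 0.11) and at 33.0 and 36.4 TPM. The ratio of Col9a3 differed from that of Col9a2 by -0.38 (-0.53 to -0.23) and that of Col9a1 by -0.51 (-0.85 to -0.17), so the chains of this trimer were not lower together.

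Type XI collagen forms the core of cartilage fibrils and is also made outside cartilage. Col11a2 had 81.6 CPM in WT and 69.8 in cKO (-0.23, -0.32 to -0.13), and Col11a1 68.9 and 63.5 CPM (-0.12, -0.22 to -0.02). Col2a1, the chain of the main cartilage collagen, was rare, with 286 and 309 counts (6.67 and 5.60 CPM, -0.25, -0.59 to 0.08) and 3.24 and 3.37 TPM. Col10a1, the marker of hypertrophic cartilage, had 22 and 36 counts and was not measured (0.51 and 0.65 CPM, 0.35, -0.81 to 1.58). Levels of the cartilage collagens therefore came from types IX and XI, with the defining chains of cartilage itself near the lower end of the range.

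Markers of cartilage and bone cells did not all share a direction, with 6 measured ratios below 1 and 3 above. Of 12 such genes 9 were measured, with a median of -0.67. By the rule 5 of these (Comp, Cnmd, Matn3, Runx2 and Sp7) were lower and none was higher, against 3.39% and 2.46% of all measured genes. All 5 were at low levels, and over the 4 genes of at least 5 CPM the median was 0.06. Comp, a cartilage matrix protein, had 82 counts in WT and 41 in cKO (-1.36, -2.25 to -0.59), Matn3, another, 137 and 93 counts (-0.92), Cnmd, chondromodulin, 110 and 80 counts (-0.82) and Sp7, the osteoblast factor osterix, 245 and 191 counts (-0.72). The 3 genes of the list with most counts were not among them, with Hapln1, which is also made by neurons, at 0.05, Alpl at 0.27 and Spp1 at -0.25. The list summed to 114 CPM in WT and 110 in cKO, and none of its genes was at 0. Ibsp (-2.44), Bglap (-1.27) and Matn1 (0.60) were below the limit of measurement, and the intervals of Bglap and Matn1 held a ratio of 1. The part of cartilage or bone in the values of the chains was not tested.

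Transmembrane collagens, which stay anchored in the plasma membrane, were close to a ratio of 1. Col23a1 had 123.2 CPM in WT and 123.8 in cKO (0.0066, -0.07 to 0.08) and ranked ninth of the chains by mean TPM, at 49.5 and 50.7. Col25a1, a neuronal chain whose shed ectodomain binds amyloid and which motor axons need to enter muscle, had 80.4 and 88.8 CPM (0.14, 0.05 to 0.23). Col13a1, a chain of the neuromuscular junction, had 6.15 and 6.31 CPM (0.04, -0.30 to 0.37). Col17a1, known from hemidesmosomes of the skin, had 31 and 17 counts and was not measured (0.72 and 0.31 CPM, -1.23, -2.79 to -0.05). The 3 measured chains summed with Col17a1 to 211 CPM in WT and 219 in cKO.

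Collagen VI builds beaded microfibrils around cells from 3 different chains, and these were not lower together. Col6a2 had 7766 counts in WT and 8066 in cKO (181 and 146 CPM, -0.31, -0.37 to -0.24), and Col6a1 7218 and 7841 counts (168 and 142 CPM, -0.24, -0.31 to -0.18). The genes lie on chromosome 10, 85161 bases apart. Col6a3, on chromosome 1, had 83.6 and 86.3 CPM (0.05, -0.04 to 0.13). Its ratio differed from that of Col6a1 by 0.29 (0.18 to 0.40), while Col6a1 and Col6a2 differed by 0.06 (-0.03 to 0.16). On the TPM scale, Col6a3 stood at 0.226 of Col6a1 in WT and 0.281 in cKO. The rarer chains Col6a6 (113 and 204 counts, 0.49, 0.02 to 1.00), Col6a4 (63 and 65 counts, -0.32, -1.12 to 0.39) and Col6a5 (60 and 53 counts, -0.54, -1.38 to 0.24) lie next to each other on chromosome 9. They had few counts, and Col6a5 and Col6a6 gave the extremes of all measured chains.

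Fibril-associated chains sit on the surface of fibrils. Col12a1, found in dense connective tissue, had 156 CPM in WT and 125 in cKO (-0.32, -0.39 to -0.25). Col14a1, of similar kind, had 57.5 and 52.3 CPM (-0.14, -0.25 to -0.03). Col16a1 had 82.5 and 77.4 CPM (-0.09, -0.18 to 0.00078). Intervals of the 3 others held a ratio of 1, namely Col22a1 of muscle-tendon junctions (11.4 and 13.1 CPM, 0.19), Col19a1, a chain of brain interneurons and muscle (5.45 and 5.51 CPM, 0.02), and Col20a1 (3.92 and 2.99 CPM, -0.39). Col20a1 shares exons with another gene on its strand, so its share of those reads is uncertain. Class sums were 317 CPM in WT and 276 in cKO (-0.20).

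Of the 4 other chains, those of type VIII, which forms lattices under endothelium and in the eye, had like ratios. Col8a1 had 64.1 CPM in WT and 55.2 in cKO (-0.22, -0.32 to -0.11), and Col8a2 33.5 and 28.5 CPM (-0.23, -0.38 to -0.09). The difference between them was 0.02 (-0.16 to 0.20). Col26a1 was in the opposite direction at 47.7 and 56.8 CPM (0.25, 0.14 to 0.37). Col28a1, described at nodes of Ranvier of peripheral nerve, had 8.46 and 9.48 CPM (0.16, -0.11 to 0.44).

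Partner chains of the same trimer kept nearly fixed proportions for the most abundant type. Col1a1 stood at 0.709 of Col1a2 on the TPM scale in WT and at 0.731 in cKO, and their log2 ratios differed by 0.03 (-0.01 to 0.06). Col5a1 stood at 1.08 of Col5a2 in WT and 1.18 in cKO, a difference in ratio of 0.14 (0.02 to 0.25), and Col11a1 at 0.666 and 0.695 of Col11a2, a difference of 0.11 (-0.03 to 0.24). Neighbouring genes were compared as well. Col9a1 and Col19a1, 9205 bases apart on chromosome 1 on opposite strands, differed by -0.54 (-1.01 to -0.07), whereas Col3a1 and Col5a2, 24614 bases apart on the same chromosome, differed by 0.09 (-0.01 to 0.18). Of the other neighbours, the rare Col6a6 and Col6a5 differed by 1.03 (0.14 to 1.92). Col6a5 and Col6a4 differed by -0.22 (-1.26 to 0.81), and Col9a3 and Col20a1 by -0.01 (-0.46 to 0.43).

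Lists of cell type markers were read beside the classes, and they differed in direction. Of 14 markers of meninges and fibroblasts, 13 had a ratio below 1, against 47.7% of all measured genes, with a median of -0.22. Of their intervals 8 (57.1%) lay below 1 and 0 above, against 18.4% and 21.9% of all measured genes, and 6 held 1. The list summed to 640 CPM in WT and 550.3 in cKO. Ogn, a small proteoglycan of meningeal fibroblasts, was lower by the rule (55.6 and 36.8 CPM, -0.60, though short of the limit on TPM at -0.56), and the members with most counts were Dcn (139 and 111 CPM, -0.33), Fmod (94.2 and 86.3 CPM, -0.13) and Postn (77.9 and 67.7 CPM, -0.20). Of 14 markers of endothelium and pericytes, 12 had a ratio above 1, against 52.3% of all measured genes, with a median of 0.11. Of their intervals 5 (35.7%) lay above 1 and 0 below, against 21.9% and 18.4% of all measured genes, and 9 held 1. The sum was 732 CPM in WT and 791 in cKO. None of these 14 markers passed the rule, against 3.39% lower and 2.46% higher of all measured genes. Those with most counts were Rgs5 (180 CPM in both libraries), Vtn (119 and 118 CPM) and Notch3 (81.0 and 101 CPM, 0.32). Neither list had a gene at 0. Schwann cell markers were present and split in direction, with 4 of 8 ratios below 1 and 4 above. On each side 3 intervals left out 1, and the median was -0.09, or 0.12 over the 7 autosomal genes. Pmp22 was at 268 and 292 CPM (0.13) and Prx at 81.5 and 108 CPM (0.40), while Drp2 was lower by the rule (57.6 and 32.9 CPM, -0.81, though -0.46 on TPM). Skeletal muscle was nearly absent, with 2 of 8 markers measured, a sum of 7.23 and 8.07 CPM and Myog at 0 in both. Of these 2, Tnnt3 was lower (1.56 and 0.87 CPM, -0.84) and Acta1 was at 3.31 and 3.81 CPM (0.20). The part of these cells in the ratios of the chains was not tested, and in whole tissue fewer cells of a type and less RNA per cell cannot be told apart.

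Among measured genes that act on new chains, the largest difference was in Serpinh1, which encodes HSP47, the chaperone of the endoplasmic reticulum that binds procollagen. Serpinh1 had 5178 counts in WT and 2351 in cKO, or 121 and 42.6 CPM, 2.83-fold lower (-1.50, -1.60 to -1.40). Its deposited TPM was 124 in WT and 45.4 in cKO. Set against its main clients, Serpinh1 had 9.70 TPM for each 100 TPM of the type I and III chains in WT and 3.84 in cKO. The chains themselves differed by -0.14 in sum. Counts were lower in cKO for each of its 4 main transcripts, Serpinh1-201 (2480 and 1844), Serpinh1-205 (964 and 7), Serpinh1-202 (931 and 30) and Serpinh1-203 (773 and 447).

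Colgalt1, which adds galactose to hydroxylysine of collagens, was also lower by the rule, with 3254 and 2510 counts (75.8 and 45.5 CPM, -0.74, -0.84 to -0.63). It overlaps exons of Unc13a on the opposite strand, a gene with 7024 and 11707 counts, and a transcript with a retained intron, Colgalt1-203, took 39.0% of its counts in WT and 31.3% in cKO. Without a stated strand setting, reads of the 2 genes there cannot be told apart. The 18 measured genes of folding and modification, 2 lower and 0 higher by the rule (3.39% and 2.46% of all measured genes), had a median of -0.06. Those with most counts were near 1, with P4hb, the beta subunit of prolyl hydroxylase, at 224 and 216 CPM (-0.05), the prolyl isomerase Ppib at 130 and 127 CPM (-0.04) and the procollagen export factor Mia3 at 95.6 and 98.6 CPM (0.04). In this list 6 intervals lay below a ratio of 1 and 1 above, against 18.4% and 21.9% of all measured genes. Outside the naming rule, the lysyl hydroxylase Plod2 (-0.40) and the prolyl hydroxylase subunit P4ha1 (-0.45) are given because their ratios followed these in size.

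**Figure D3:**
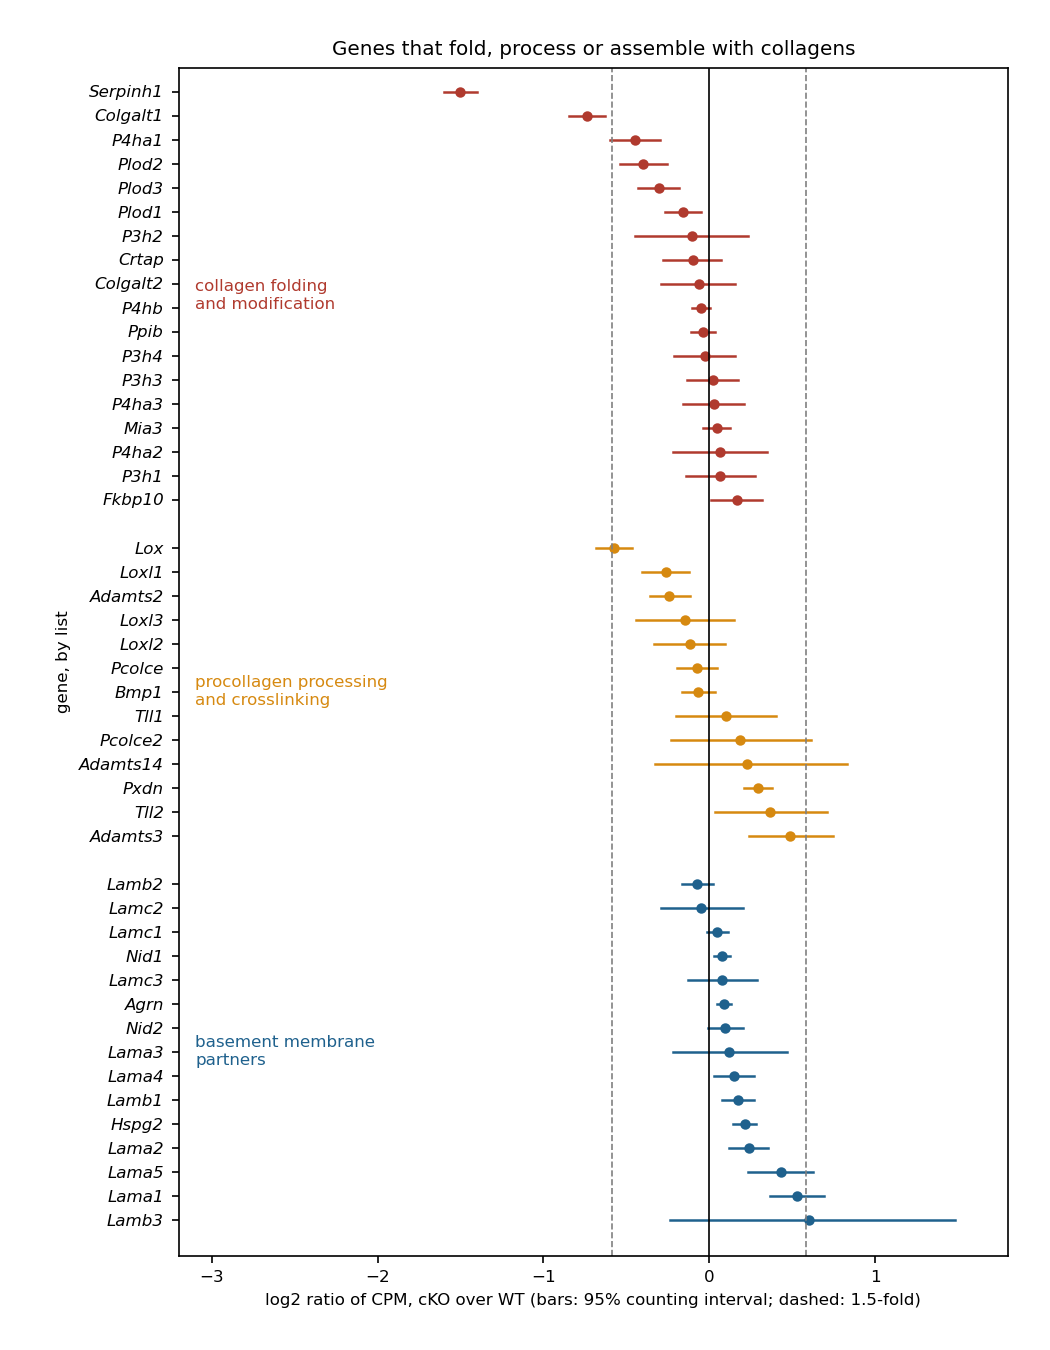
Log2 ratio of scaled CPM, cKO over WT (x axis), of measured genes that fold, process or assemble with collagens (y axis, by list), with bars for the 95% counting interval and dashed lines at 1.5-fold. Serpinh1 at -1.50 and Colgalt1 at -0.74 lie past the lower line, and 13 of 15 basement membrane partners lie above 0 (52.3% of all measured genes do).

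Genes of procollagen processing and crosslinking had a median of -0.07 over 13 measured genes. Against 3.39% and 2.46% of all measured genes, 0 were lower and 0 higher by the rule. Lox, the lysyl oxidase that starts crosslinking of fibrillar collagen, was just short of it, with 3030 and 2617 counts (70.6 and 47.5 CPM, 1.49-fold lower, -0.57, -0.68 to -0.47). Pxdn, which forms the sulfilimine crosslinks of type IV collagen, was on the other side (83.6 and 102.4 CPM, 0.29, 0.21 to 0.38). Bmp1, the procollagen C-proteinase, had 71.5 and 68.3 CPM (-0.07). Lox and Pxdn thus differed in direction, but the list as a whole was split. In it 3 intervals lay below a ratio of 1 and 3 above (23.1% each, against 18.4% and 21.9% of all measured genes).

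Genes that assemble with type IV collagen were mostly above a ratio of 1. Of 15 laminin, nidogen, perlecan and agrin genes, 13 had a ratio above 1 (52.3% of all measured genes did). None of the 15 passed the rule, against 3.39% lower and 2.46% higher of all measured genes. Of their intervals 8 lay above 1 and 0 below, against 21.9% and 18.4% of all measured genes. Their median was 0.12 and their sum 1274 CPM in WT and 1375 in cKO. Agrn was at 339 and 360 CPM (0.09), Nid1 at 271 and 285 CPM (0.08, 0.03 to 0.12) and Lamc1 at 166 and 171 CPM (0.05).

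Measured collagen receptors and turnover genes showed no call, where 3.39% of all measured genes were lower and 2.46% higher by the rule. The 11 measured receptors had a median of 0.03, and those with most counts were the phosphatase Ptprs (398 and 452 CPM, 0.19), integrin Itgb1 (294 and 252 CPM, -0.22) and the discoidin receptor Ddr1 (181 and 149.7 CPM, -0.27). Turnover genes had a median of -0.02 over 11 measured, and those with most counts were the inhibitors Timp2 (435 and 459 CPM, 0.08) and Timp3 (229 and 225 CPM, -0.02) and the membrane protease Mmp15 (112 and 113 CPM, 0.01).

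Transcripts of the chains were compared as shares of each gene's estimated counts, with 95% Wilson intervals. These intervals treat each fragment of a gene as assigned with certainty, so they leave out the error of dividing shared reads and are too narrow. For the 6 chains of highest TPM, 5 had the same main transcript in both libraries. Col1a1-201 took 99.97% of its gene in both, Col1a2-201 99.2% and 99.4%, Col3a1-201 99.9% in both, Col6a1-201 99.9% and 99.97%, and Col6a2-201 83.3% and 83.0%. Col4a1 was the exception. Col4a1-201, the protein-coding form, took 62.0% in WT (60.7% to 63.3%) and 16.0% in cKO (15.2% to 16.9%), and Col4a1-208, annotated as a target of nonsense-mediated decay, took 37.9% and 83.7%. These transcripts share 6470 bases. Only 145 bases, outside the coding sequence, are particular to the first and 17 bases to the second, so the shares are estimates from the few reads that tell them apart.

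**Figure D4:**
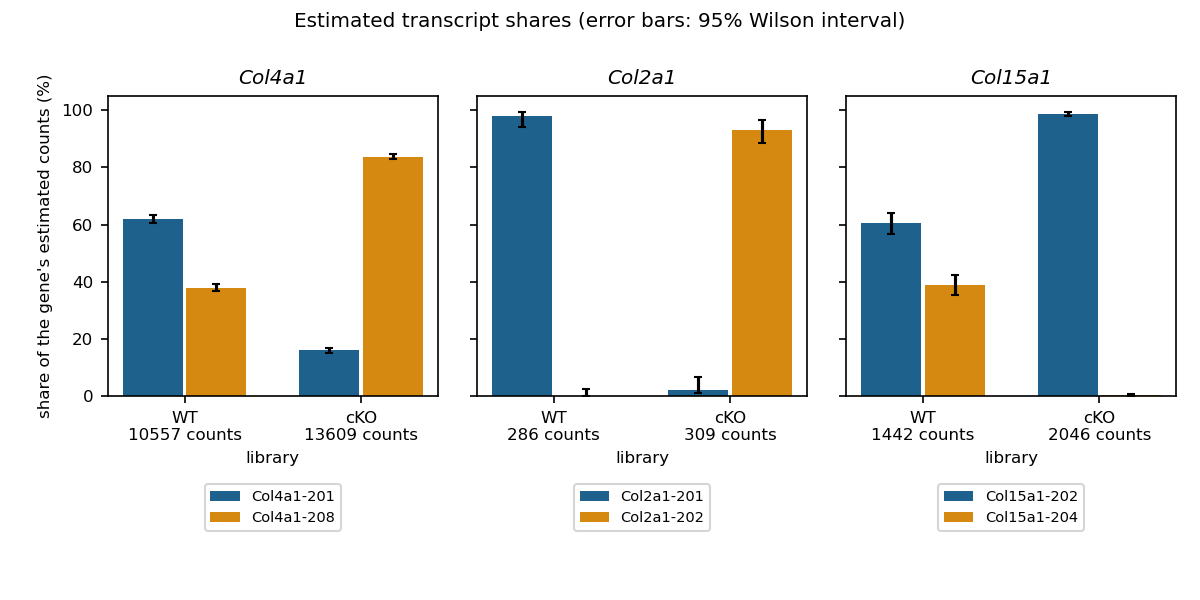
Share of the gene's estimated counts (y axis, percent) given to the named transcripts of Col4a1, Col2a1 and Col15a1 in the WT and cKO libraries (x axis, with the gene's counts), with error bars for the 95% Wilson interval. The bars leave out the error of dividing shared reads between transcripts. The main transcript of Col4a1 and of Col2a1 differs between the libraries, and Col15a1-204 goes from 38.8% to 0.293%.

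Similar shifts were found in chains chosen after their values had been seen. The largest share shift within a gene exceeded 10 percentage points in 9 of the 41 measured chains with more than 1 transcript, against 28.9% of all 12451 such measured genes, so the chains did not stand out by this count. The largest was 95.6 points, in Col2a1. Col2a1-201 had 280 of the 286 counts of its gene in WT and 7 of 309 in cKO, while Col2a1-202 had 0 and 288, or 0% (up to 2.62%) and 93.2% (88.5% to 96.4%). The 2 differ in exon 2, which encodes the cysteine-rich domain of the propeptide and is present in the form of chondrocyte precursors and of non-cartilage tissue and skipped in mature cartilage, and in 38 further bases of the first exon. Exon 2 spans chr15:98000403-98000606 on the minus strand, with 204 bases that are all coding and a length divisible by 3. It is shown in the sense of the transcript, from the GENCODE M21 transcript sequences on GRCm38, because it is the main difference between these transcripts.
Col2a1 exon 2: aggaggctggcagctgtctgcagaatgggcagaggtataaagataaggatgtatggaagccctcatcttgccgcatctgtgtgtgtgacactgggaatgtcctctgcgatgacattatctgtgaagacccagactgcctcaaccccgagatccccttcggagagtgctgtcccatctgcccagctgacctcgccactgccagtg

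Col15a1-204, a form of 3253 bases with 19 exons and a first exon of 801 bases of its own, took 38.8% of the counts of Col15a1 in WT and 0.293% in cKO. The full-length Col15a1-202, of 5172 bases and 40 exons, took 60.5% and 98.7%. A longer mean transcript lowers TPM for the same count, and for Col15a1 the CPM ratio was 0.14 and the TPM ratio -0.07. Col14a1-201 went from 41.7% to 4.47% and Col13a1-204 from 40.9% to 65.5% of their genes. Col18a1 was steadier, with Col18a1-202 at 75.7% and 69.8% and Col18a1-201, which has its own first exon, at 16.4% and 22.9%. Every one of these values is a division of shared reads made by the authors' software in a single library per group.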

How the data were processed

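RNA was taken from whole spinal cord at P7 with Trizol, and mRNA libraries were made with a VAHTS V2 kit, per the labels' protocols. Per the file headers, values per gene and per transcript were deposited in 3 units, estimated counts, FPKM and TPM. The authors' FPKM values served only to check what a count is. CASAVA, Bowtie2 2.3.2 and the build GRCm38.p6 appear in the submitters' processing notes. For the read counter, its annotation and its strand setting, nothing is stated in the sources used here. Positions of 43 of the 44 chains equalled those of GENCODE M21, and the table holds no column of other samples.

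From the estimated counts, library sizes were scaled with edgeR 4.0.16 (R 4.3.3), whose TMM factors were 1.0006 for WT and 0.9994 for cKO. No model was fitted. The log2 ratio of CPM had no pseudocount. Exact (Clopper-Pearson) 95% intervals were computed with scipy 1.17.1 (Python 3.11.15) on fragments, with 1 fragment taken as 2 counts. In genes with 1 transcript and few counts the unrounded value lay within 0.2 of an even number for 31.5% of 5419 (WT) and 29.9% of 5811 (cKO) and of an odd number for 22.6% and 23.5%, so this unit is uncertain, and intervals on counts were an alternative. PCR copies are not independent molecules, so intervals cover counting error alone. A count of 0 would be set to a floor of 3 fragments. The 1.5-fold rule was tested on simulated counts, and the other steps were not.

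Chains, 11 lists of 137 related and marker genes (136 found) and all rules were chosen with earlier results of these data known. Named genes were every measured chain, Secisbp2l and, in each list, the 3 genes of highest level and at most 4 past the rule, taken by size of ratio. Of the genes this rule takes, 1 is not reported here. Alternatives comprised other scalings, limits on low values, TPM with pseudocounts of 0.1 and 1, sums over genes that share exons, and autosomal genes alone. Of the chains, 3 share exons on their strand with another counted gene (Col20a1, Col3a1 and Col7a1) and 8 on the opposite strand.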

Additional observations from a re-analysis of the deposited data

How the results depend on the processing

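The count of lower chains was 0 with the main settings, with median-of-ratios or upper quartile scaling, at a limit of 5 CPM, with intervals on deposited counts, with summed loci, on autosomal genes and on TPM with a pseudocount of 1. It was 1 with no limit on low values, which lets in Col17a1, and 2 on TPM with a pseudocount of 0.1 (Col6a4 at -1.03 and Col6a5 at -0.70). The count of higher chains was 0 in each of these. On TPM, 5 chains changed sign (Col9a2, Col15a1, Col2a1, Col19a1 and Col7a1) and 8 of 42 left their own interval, while the scalings changed no sign. TPM ratios of all genes lay 0.04 above CPM ratios in the median. The medians of the fibrillar, basement membrane, cartilage and transmembrane classes kept their sign under all alternatives run for them, though that of basement membrane chains came to 0.06 on TPM and 0.03 for type IV alone, and that of cartilage chains to -0.12 on TPM and -0.40 without types II and XI. Serpinh1 (-1.50 to -1.43) and Colgalt1 (-0.74 to -0.66) stayed past the 1.5-fold limit. No paired analysis was possible because each group is 1 library. Of the 6 measured chains under 5 CPM, all but Col6a6 had intervals that held a ratio of 1, and differences between animals could not be seen at any depth.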

Other observations

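Other matrix and chaperone genes, looked up after the ratio of Serpinh1 had been seen, did not share its size. The matrix glycoprotein Fn1 had 266 CPM in WT and 224 in cKO (-0.24, interval -0.30 to -0.19), and Sparc, a collagen-binding protein of the matrix, 1347 and 1246 CPM (-0.11, -0.13 to -0.09). Hspa5, the main chaperone of the endoplasmic reticulum, had 151 and 145 CPM (-0.05, -0.12 to 0.02). Of 12 heat shock genes, 0 passed the 1.5-fold rule in either direction, where 3.39% of all measured genes were lower and 2.46% higher. At such shares 0 of 12 does not stand out. The median of the 12 was -0.01, with a range from -0.33 (Hspb1) to 0.19 (Hspa8).

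Several genes under 1 CPM had large ratios on few counts. The collagenase Mmp13 had 47 counts in WT and 6 in cKO (-3.33, -5.74 to -1.64), and Mmp8 had 24 and 6 counts (-2.36, -4.83 to -0.47). The crosslinking enzyme Loxl4 had 60 and 25 counts (-1.63, -2.78 to -0.68), and Ibsp, a bone matrix protein, 55 and 13 counts (-2.44, -4.15 to -1.29). The myosin gene Myh8 had 23 and 70 counts (1.24, 0.20 to 2.26).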
